A study of Mus musculus with 57 samples.

Results

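The high mobility group (HMG) chromatin genes are 8 of the 12887 genes measured in single cells sorted from mouse bone as RM1 prostate cancer cells. They comprise Hmgb1, Hmgb2, Hmgb3, Hmga1, Hmga2, Hmgn1, Hmgn2 and Hmgn3. They were listed by name, and the list was chosen by an earlier result in these cells, a lower Hmgb1 level in dormant than in proliferating cells. The difference between dormant and proliferating cells is therefore given for these genes as a description, with its standard error and without a test. All 8 genes passed the filter of a value above 0 in at least 6 cells.

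HMG proteins are small, abundant chromatin proteins that bind DNA or nucleosomes with little sequence preference and alter how chromatin folds. HMGB proteins carry HMG boxes that bend DNA, HMGA proteins hold AT-hooks that grip the minor groove of AT-rich DNA, and HMGN proteins bind the nucleosome core and oppose linker histones. HMGA proteins are scarce in most adult tissues and abundant in embryonic and many tumour cells, and HMGB2 is known for high levels in dividing cells.

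The injected cells came from the mouse prostate cancer line RM1 in a derivative, RM1536, that expresses the fluorescent protein eCFP and the luciferase luc2. They were stained with PKH26, a membrane dye that each division dilutes, and were put into the circulation of C57BL/6 mice through the heart. Dormant cells were single cells sorted from bone marrow as PKH26-positive, 28 cells from 6 mice on days 14 to 26 after injection. Proliferating cells were sorted as PKH26-negative, 29 cells from 6 mice on days 13 to 18. Of 8 mice, 4 (mice 360, 369, 452 and 1185) gave cells of both states. All mice were C57BL/6 and all cells were sorted as cells of 1 line, so no genotype that differs between the states is labelled. Whether 6 dormant cells with little of the tumour label, described below, derive from that line was not tested. Each library was 1 sorted cell, so no cell barcodes are shared. The library batch of each cell is not given, so a batch effect cannot be told apart from one of state. Among proliferating cells of mouse 369, detected ERCC spike-ins numbered 18 to 25 in cells 1 to 5 and 40 to 45 in cells 30 to 47. Dormant cells of that mouse had 40 (cell 29) to 45 (cell 25).

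Cells held between 945351 and 5306777 recovered reads and between 2399 and 10509 genes above 0, with medians of 7238 genes in dormant and 7649 in proliferating cells. The tumour label was not present in every cell. Of the dormant cells, 6 from 4 mice had eCFP below 100 normalised reads and are called low-label cells, whereas labelled dormant cells had 349 to 5256 and proliferating cells 327 to 3230. All 18 pan-leukocyte genes of the marker list were above 0 in at least 3 of the 6 low-label cells, with summed levels of 41599.5 to 103153 normalised reads. The same sum was 935 to 20258 in labelled dormant and 762 to 10059 in proliferating cells, in which Arhgdib, above 0 in all 57 cells, made up most of it at the median and 2 of the 18 genes were at 0 in every proliferating cell. Lyz2, a macrophage and granulocyte lysozyme, had 52146 to 188632 normalised reads in low-label cells, against 0 to 95205 (median 7.19) in labelled dormant and 0 to 1251 (median 4.18) in proliferating cells. Leukocyte-rich cells, with at least 5 of the 18 genes above 0, numbered 17 dormant (all 6 low-label cells among them) and 13 proliferating. In proliferating cells the name stands for a count of genes only. The median sum was 1878 in leukocyte-rich and 2201 in the other (leukocyte-poor) cells, and the median of genes above 0 was 8480 and 7124. Leaving out leukocyte-rich cells thus also leaves out proliferating cells with more genes above 0 at the median. Among labelled dormant cells the sum was 1262 to 20258 (median 3939) in leukocyte-rich and 935 to 3677 (median 1324) in leukocyte-poor cells. These ranges overlapped, so there too the name need not mean a high level. Proliferating cell 6 of mouse 268 stood apart with 2399 genes above 0, the fewest of any cell. Results are given with and without these cells.

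Promoter sequences are shown for the 3 HMG-box members, whose levels are compared below with that of the proliferation gene Mki67, and for Hmga2 as an AT-hook member. RefSeq windows of 300 bases (250 before and 50 after the start, build GRCm38.p6) were found for 7 of the 8 members, and the 250 bases before the start are printed 5′ to 3′ along the gene's strand. Capitals mark CCAAT, the box bound by NF-Y, and TTTGAA, the core of the cell cycle homology region, on either strand (as ATTGG or TTCAAA in reverse).
Hmgb1 (chr5:149053058-149053307, minus strand): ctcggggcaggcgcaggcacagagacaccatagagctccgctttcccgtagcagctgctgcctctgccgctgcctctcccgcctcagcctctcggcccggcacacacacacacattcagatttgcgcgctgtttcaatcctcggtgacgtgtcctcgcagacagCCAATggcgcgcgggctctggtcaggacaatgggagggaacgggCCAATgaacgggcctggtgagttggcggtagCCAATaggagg
Hmgb2 (chr8:57511593-57511842, plus strand): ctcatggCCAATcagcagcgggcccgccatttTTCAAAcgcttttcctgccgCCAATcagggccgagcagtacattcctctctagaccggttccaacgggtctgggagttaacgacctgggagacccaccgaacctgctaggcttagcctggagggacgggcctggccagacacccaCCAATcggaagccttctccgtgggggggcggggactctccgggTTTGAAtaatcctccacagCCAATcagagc
Hmgb3 (chrX:71555667-71555916, plus strand): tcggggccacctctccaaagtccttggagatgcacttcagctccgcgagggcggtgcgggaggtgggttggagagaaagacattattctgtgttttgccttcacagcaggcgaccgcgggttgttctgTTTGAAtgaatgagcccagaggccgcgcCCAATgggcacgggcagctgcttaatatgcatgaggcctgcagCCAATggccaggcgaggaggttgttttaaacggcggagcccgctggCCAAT
Hmga2 (chr10:120476470-120476719, minus strand): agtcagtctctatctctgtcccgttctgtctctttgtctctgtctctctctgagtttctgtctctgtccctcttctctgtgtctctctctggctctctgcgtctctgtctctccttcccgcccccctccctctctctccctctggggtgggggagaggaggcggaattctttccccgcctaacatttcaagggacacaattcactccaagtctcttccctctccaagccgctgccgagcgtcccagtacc

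The Hmgb1 window held 3 CCAAT matches, beginning 86, 42 and 11 bases before the start, and no TTTGAA. The Hmgb2 window held 4 CCAAT and 2 TTTGAA matches, 1 of these TTTGAA in reverse. The Hmgb3 window held 3 CCAAT and 1 TTTGAA. The windows of Hmgn1 and Hmgn2 held 2 and 1 CCAAT, whereas those of Hmga2, of both Hmga1 starts and of a second Hmgb1 start held neither motif. Of 32817 distinct windows of this length, 37.4% held CCAAT on either strand, 3.37% held it at least 3 times and 17.9% held TTTGAA. The window of Mki67 held 3 CCAAT and 2 TTTGAA. The E2F-like words TTTGGCGC and TTTCGCGC, present in 0.515% and 0.323% of windows, were in no window of a member. The motifs do not overlap each other, and a match describes the letters only.

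Hmgb1 (chr5:149046702-149184489, minus strand, GRCm38, GENCODE vM21) encodes the most abundant HMG-box protein, which bends DNA in the nucleus and acts as an alarm signal when released. Every one of the 28 dormant and 29 proliferating cells had reads of it. Dormant cells had 480.0 to 5437 normalised reads with a median of 1033, against 902 to 6619 with a median of 3377 in proliferating cells. The ranges overlapped, but 13 of 28 dormant cells lay below the lowest proliferating cell and 24 of 28 below the proliferating median. With each mouse as 1 replicate, the mean of log2(normalised reads + 1) had a lowest value of 9.33, a median of 9.94 and a highest value of 11.04 in dormant cells, against 10.96, 11.59 and 12.54 in proliferating cells. The only crossing was between dormant cells of mouse 369 and proliferating cells of mouse 452. Means were 10.08 ± 0.58 in dormant and 11.70 ± 0.63 in proliferating cells (SD, n = 6 mice each), a difference of −1.62 (SE 0.47) on the log2 scale. Over all genes, limma called 0% of 11843 at an adjusted p of 0.05. It gave an unadjusted p under 0.05 for 389 higher and 737 lower in dormant cells. edgeR called 0 genes (with an unadjusted p under 0.05 for 665 higher and 118 lower genes), and DESeq2 called 302 of 11843. These counts describe all genes and are no test of the HMG genes, since this contrast chose them.

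Within the 4 mice that gave both states, dormant Hmgb1 was lower in each mouse. The difference of means was −3.21 in mouse 360, −1.13 in mouse 452, −1.11 in mouse 1185 and −0.62 in mouse 369, on the log2 scale. With the mouse as a block the difference was −1.52 (SE 0.54), in a fit that called 0% of 11579 genes (120 higher and 950 lower had an unadjusted p under 0.05). Mouse 360 weighed most in it, with a difference of −0.95 (SE 0.66) without that mouse. Both dormant cells of mouse 360 were low-label cells. Among labelled cells the difference in mouse 369 was 0.08, so that 2 of the 3 remaining mice had lower dormant Hmgb1.

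Low-label cells lay at the low end of the Hmgb1 values. Their 6 values were 480.0, 487, 583, 864, 947 and 1303 normalised reads, against a median of 1330 in labelled dormant cells (500.1 to 5437). Without low-label cells the difference over all mice was −1.16 (SE 0.46, 4 dormant and 6 proliferating means). Without leukocyte-rich cells it was −0.73 (SE 0.43, 3 and 6 means), beside a median of 0.92 over all 10357 genes tested in those cells. Labelled dormant cells that were leukocyte-rich had a median of 868 normalised reads of Hmgb1, against 1880 in those that were not (n = 11 each, ranges overlapping). Proliferating cells showed 2884 in leukocyte-rich (n = 13) and 3811 in leukocyte-poor cells (n = 16). The part of leukocyte transcripts in these values was not tested.

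**Figure D1:**
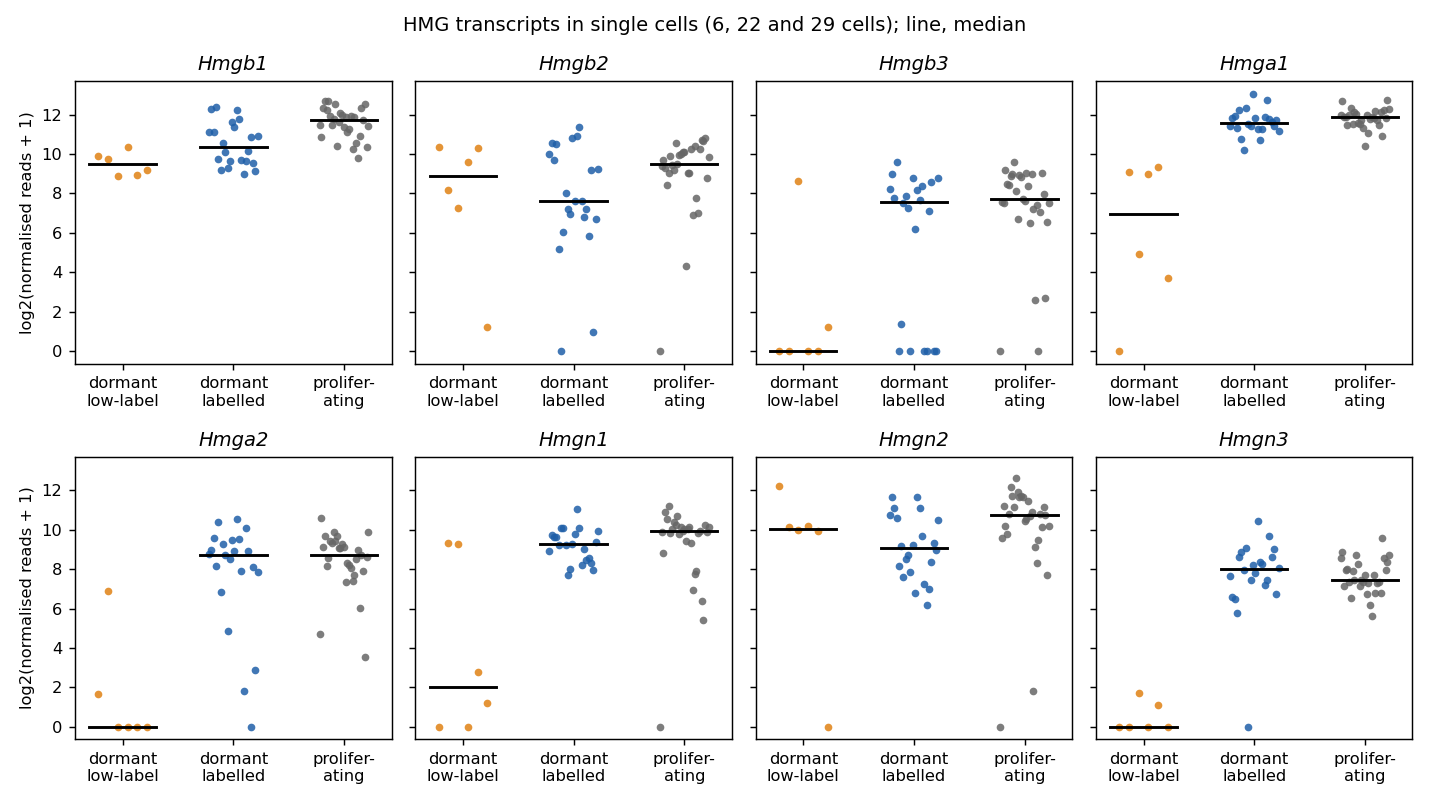
Normalised reads of each HMG gene in single cells, as log2(value + 1), for 6 low-label dormant, 22 labelled dormant and 29 proliferating cells. Each point is a cell and each line the group median. Medians of Hmgb3, Hmga1, Hmga2, Hmgn1 and Hmgn3 lie far lower in low-label cells than in both other groups. Hmgb1 is above 0 in every cell and has its highest median, 3377 reads, in proliferating cells.

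Hmgb2 (chr8:57511907-57515999, plus strand), the HMG-box gene known for its high level in dividing cells, had reads in 27 of 28 dormant cells, and in 28 of 29 that were proliferating. Dormant cells had 0 to 2673 normalised reads with a median of 226, against 0 to 1776 with a median of 732 in proliferating cells, so the highest single values were dormant. Mouse means were 7.73 ± 2.42 in dormant and 8.59 ± 1.96 in proliferating cells (SD, n = 6 each), and the difference of −0.85 (SE 1.06) was smaller than its standard error. It ranged from −1.63 (SE 0.92) without mouse 268 to −0.01 (SE 1.02) without mouse 452. Unlike the label-dependent members described below, Hmgb2 had a higher median in low-label cells (533) than in labelled dormant cells (193), and the difference without low-label cells was −1.14 (SE 1.18). Within the 4 mice with both states it was −1.99 (SE 0.93), and −0.95 (SE 0.82) without mouse 452. The dormant mean was lower in 3 of these mice, with differences of −5.09 in mouse 452, −2.44 in mouse 1185 and −1.18 in mouse 360, and higher in mouse 369 (0.78). Without leukocyte-rich cells the difference was 1.26 (SE 1.74). It was −0.27 (SE 0.68) when proliferating cell 6, which had 0 reads of Hmgb2, was left out as well.

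Hmgb3 (chrX:71555918-71560676, plus strand), an HMG-box gene known from blood progenitors, was the member most often at 0. It was above 0 in 18 of 28 dormant cells (64.3%, exact 95% interval 44.1 to 81.4%), against 27 of 29 proliferating cells (93.1%, 77.2 to 99.2%). Intervals cover counting error only and treat cells as independent. Dormant cells had a median of 144 normalised reads, against 213 in proliferating cells. Mouse means were 3.84 ± 2.10 in dormant and 6.67 ± 1.87 in proliferating cells (SD, n = 6 each), with a difference of −2.83 (SE 1.22). Without low-label cells the difference was −1.03 (SE 1.26). Hmgb3 was above 0 in 16 of 22 labelled dormant cells and in 2 of 6 low-label cells (median 0).

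Hmga1 (chr17:27556497-27563674, plus strand), an AT-hook gene that is abundant in embryonic and tumour cells, separated the low-label cells from the rest. The 6 low-label cells had 0, 12, 29.6, 507, 549 and 653 normalised reads, whereas labelled dormant cells had 1195 to 8543 (median 3064) and proliferating cells 1349 to 6793 (median 3719). No low-label cell reached the lowest labelled cell of either state. Mouse means were 8.49 ± 4.46 in dormant and 11.94 ± 0.30 in proliferating cells (SD, n = 6 each), a difference of −3.46 (SE 1.56). The dormant mean of mouse 244 rests on 1 low-label cell with 0 reads of Hmga1, and the difference was −1.76 (SE 0.62) without that mouse and −1.72 (SE 0.67) within the 4 mice with both states. All dormant means lay below all proliferating means, as they did for 0.363% of the 11843 genes, a share that says nothing of the members since this contrast chose them. Without low-label cells the difference was −0.34 (SE 0.34), and in labelled cells of mice 369, 452 and 1185 it was −0.01, −0.63 and −0.69.

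Hmga2 (chr10:120361275-120476469, minus strand), the AT-hook gene held down by let-7 microRNAs in many adult cells, had reads in 23 of 28 dormant cells, and in all 29 that were proliferating. Low-label cells had 0 in 4 of 6, and 2.15 and 117 normalised reads in the other two. Labelled dormant cells had a median of 422 (0 to 1514), against 414 (10.7 to 1559) in proliferating cells. The difference of mouse means was −2.79 (SE 1.08) with all cells, from 5.52 ± 2.58 in dormant and 8.32 ± 0.72 in proliferating cells (SD, n = 6 each). It was −0.17 (SE 0.76) without low-label cells. Of the labelled dormant cells, 11 of 22 lay below the proliferating median.

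Hmgn3 (chr9:83109948-83146685, minus strand), a nucleosome-binding gene, followed the same pattern as Hmga2. It was at 0 in 4 of 6 low-label cells and at 1.15 and 2.28 normalised reads in the other two. Labelled dormant cells had a median of 256 (0 to 1402) and proliferating cells one of 175 (47.8 to 772). Mouse means were 4.53 ± 3.58 in dormant and 7.82 ± 0.63 in proliferating cells (SD, n = 6 each). The difference was −3.28 (SE 1.31) with all cells and −0.42 (SE 0.85) without low-label cells.

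Hmgn1 (chr16:96120618-96127729, minus strand) and Hmgn2 (chr4:133964738-133968650, minus strand) encode the founding nucleosome-binding HMGN proteins and parted from each other in the low-label cells. Hmgn1 was at 0 in 2 low-label cells, between 1.33 and 5.76 normalised reads in 2 others, and at 628 and 633 in the 2 cells of mouse 360. Labelled dormant cells had 209 to 2130 (median 611), against 0 to 2373 (median 976) in proliferating cells. The Hmgn1 difference was −1.59 (SE 1.31) with all cells, from 7.02 ± 3.66 in dormant and 8.62 ± 2.05 in proliferating cells (SD, n = 6 each), and 0.63 (SE 0.92) without low-label cells. It was −0.19 (SE 0.94) without mouse 244, whose 1 dormant cell had 0 reads of Hmgn1, and −0.73 (SE 0.81) within the 4 mice with both states.

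Hmgn2 was between 986 and 4717 normalised reads in 5 low-label cells and at 0 in the sixth. Their median of 1063 was above that of labelled dormant cells (546, range 71.2 to 3284), and the median of proliferating cells was 1748 (0 to 6275). The Hmgn2 mouse means were 9.49 ± 1.89 in dormant and 9.32 ± 2.49 in proliferating cells (SD, n = 6 each), a difference of 0.17 (SE 0.98), the only positive one of the 8. It was −0.74 (SE 0.78) without mouse 268, where proliferating cell 6 had 0 reads of Hmgn2, and −0.51 (SE 0.58) within the 4 mice with both states.

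Across the list, 7 of 8 differences were negative with all cells, with a median of −2.21, beside 63.1% of all genes and a median of −0.35. Without low-label cells, 7 of 8 were again negative, but the median was −0.38, beside 0.09 over all genes. Without leukocyte-rich cells, 2 of 8 were negative and the median was 1.01, beside 0.92 over all genes, in a set where the mean of mouse 268 rests on proliferating cell 6. With that cell also left out, a setting chosen after seeing the data, 4 of 8 were negative with a median of −0.11, beside 0.36 over all genes, and Hmgb1 stood at −0.78 (SE 0.41). Within the 4 mice with both states, all 8 were negative with a median of −1.86, beside −0.72 over all genes. The share of all genes with a negative difference shifted as well, from 63.1% to 45.5% once low-label cells were dropped. It stood at 24.1% when leukocyte-rich cells were dropped, and at 37.2% when proliferating cell 6 was dropped too. In the 4 mice it stood at 76.6%. The direction of the list thus depended on which cells were kept, as did that of all genes. The Hmgb1 difference was negative in each of these sets.

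**Figure D2:**
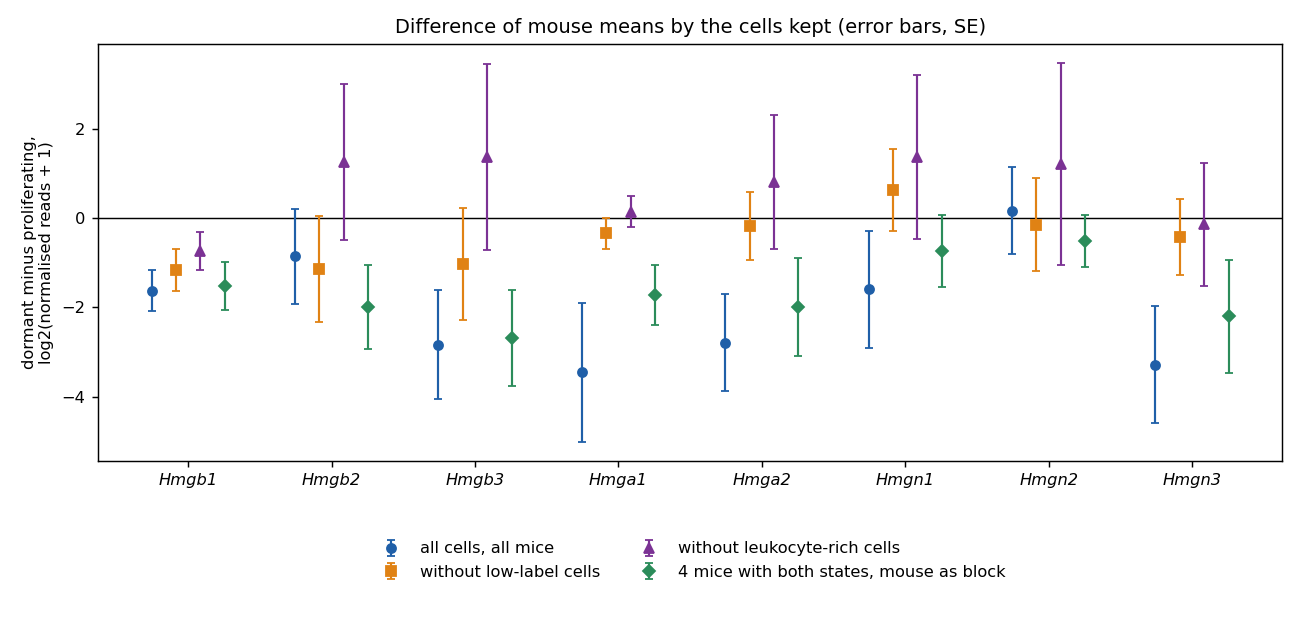
Difference of mouse means, dormant minus proliferating, on the log2(normalised reads + 1) scale for the 8 HMG genes with 4 sets of cells. Symbols are differences and bars the moderated standard errors of the limma fits. Hmgb1 lies below 0 in every set, from −1.62 with all cells to −0.73 without leukocyte-rich cells, whereas Hmga1, Hmga2 and Hmgn3 lie near 0 once low-label cells are left out.

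Mki67, a marker of cycling cells, was detected in 14 of 28 dormant cells, and in 22 of 29 that were proliferating. Median Hmgb1 was higher in cells with Mki67 in both states. Dormant cells with Mki67 above 0 had a median Hmgb1 of 2080 normalised reads (480.0 to 5437), and dormant cells with Mki67 at 0 had 852 (500.1 to 2706). Proliferating cells with Mki67 above 0 had 3628 (1316 to 6619), and those with Mki67 at 0 had 2664 (902 to 5274). The ranges overlapped in both states. Of the 5 mice with both kinds of dormant cell, 4 had higher mean Hmgb1 in cells with Mki67, and the exception was mouse 360, whose 2 dormant cells were both low-label. The mean of the 5 within-mouse differences was 0.62 on the log2 scale (−0.85 to 1.24), beside a median of 0.28 over all genes. In proliferating cells it was 0.29 (−0.65 to 1.5), higher in 2 of 3 mice, beside a median of 1.54 over all genes.

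Hmgb1 was also compared between the states at matched Mki67 detection. Among cells with Mki67 above 0 the difference of mouse means was −1.22 (SE 0.43, 5 means each), beside a median of −0.86 and 77.0% negative differences over the 11259 genes tested in those cells. Among cells with Mki67 at 0 it was −1.60 (6 dormant and 4 proliferating means). The moderated standard error of the limma fit was 1.65 there, whereas the SDs of the Hmgb1 mouse means were 0.30 in dormant and 0.89 in proliferating cells. Over the 9300 genes tested among cells with Mki67 at 0, the median difference was 0.37 and 41.9% of differences were negative. Both sets were chosen after seeing the data and include low-label cells. Labelled dormant cells with Mki67 had a median Hmgb1 of 2228, and labelled dormant cells without it 826.

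Hmgb3 showed the widest gap by Mki67 in dormant cells. It was above 0 in 12 of 14 dormant cells with Mki67 (median 292 normalised reads) and in 6 of 14 without it (median 0). The within-mouse difference was positive in all 5 mice, with a mean of 6.08 on the log2 scale (3.03 to 8.62), beside a median of 0.28 over all genes. Cells at 0 enter these means. The highest, in mouse 360, compared 1 low-label cell, with 2.28 normalised reads of Mki67, with another. In mouse 452 the 1 cell with Mki67 had 0.86 normalised reads of it, and in mouse 369 the 1 cell without it was low-label. Requiring at least 10 normalised reads of Mki67 gave a mean of 4.98 over 3 mice (3.03 to 6.91). In proliferating cells Hmgb3 was above 0 in all 22 with Mki67 and in 5 of 7 without it.

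Hmgb2 and Hmgn2 medians also differed by Mki67 in both states. Hmgb2 medians in dormant cells were 924 with Mki67 and 135 without it, and in proliferating cells 946 and 126. Within dormant cells the Hmgb2 difference was positive in 4 of 5 mice with a mean of 1.64, beside a median of 0.28 over all genes. Within proliferating cells it was positive in 3 of 3 mice with a mean of 5.05, beside 1.54 over all genes. The 3 values were 2.52 (mouse 369), 3.25 (mouse 452) and 9.38 (mouse 268). That of mouse 268 compared 1 cell with proliferating cell 6, which had 0 reads of Hmgb2. Hmgn2 medians were 1236 and 322 in dormant cells and 1827 and 722 in proliferating cells, with and without Mki67. The Hmgn2 difference within dormant cells was positive in 3 of 5 mice (mean 1.09, −1.05 to 3.51). Within proliferating cells it was positive in 3 of 3 (mean 4.72). That of Hmgn1 was positive in 4 of 5 mice in dormant cells (mean 2.29, −0.01 to 8.14). In proliferating cells it was positive in 2 of 3 (mean 3.33, −0.22 to 9.88). The highest Hmgn1 values, in mice 369 and 268, each rest on 1 cell without Mki67 that had 0 reads of Hmgn1. Among cells with Mki67 above 0, mouse means of Hmgb2 were 8.18 in dormant and 9.70 in proliferating cells, a difference of −1.52 (SE 0.72).

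Hmga1, Hmga2 and Hmgn3 were read in the same way. Median Hmga1 was 2656 with Mki67 and 3116 without it in dormant cells, and 3722 and 3660 in proliferating cells. In dormant cells Hmga2 medians were 360.0 with and 179 without Mki67 (470.3 and 390.2 among labelled cells), and those of Hmgn3 were 225 and 171 (256 and 266 among labelled cells). The mean within-mouse difference in dormant cells was −0.15 for Hmga1 (−4.17 to 3.15), 0.56 for Hmga2 (−6.88 to 7.10) and 1.22 for Hmgn3 (−1.40 to 5.52). In proliferating cells it was 0.43 for Hmga1, 1.96 for Hmga2 and 0.19 for Hmgn3. Over all 8 genes, the median within-mouse difference was 1.16 in dormant cells, beside 0.28 over all genes, with 7 of 8 positive beside 59.6% of all genes. In proliferating cells it was 2.47, beside 1.54 over all genes, with 8 of 8 positive beside 81.0% of all genes. These values rest on 3 mice, and in mouse 268 the only cell without Mki67 was proliferating cell 6, with the fewest genes above 0. Proliferating cells with Mki67 had a median of 8232 genes above 0 and those without it 6020, and the part of this depth gap in the values was not tested.

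**Figure D3:**
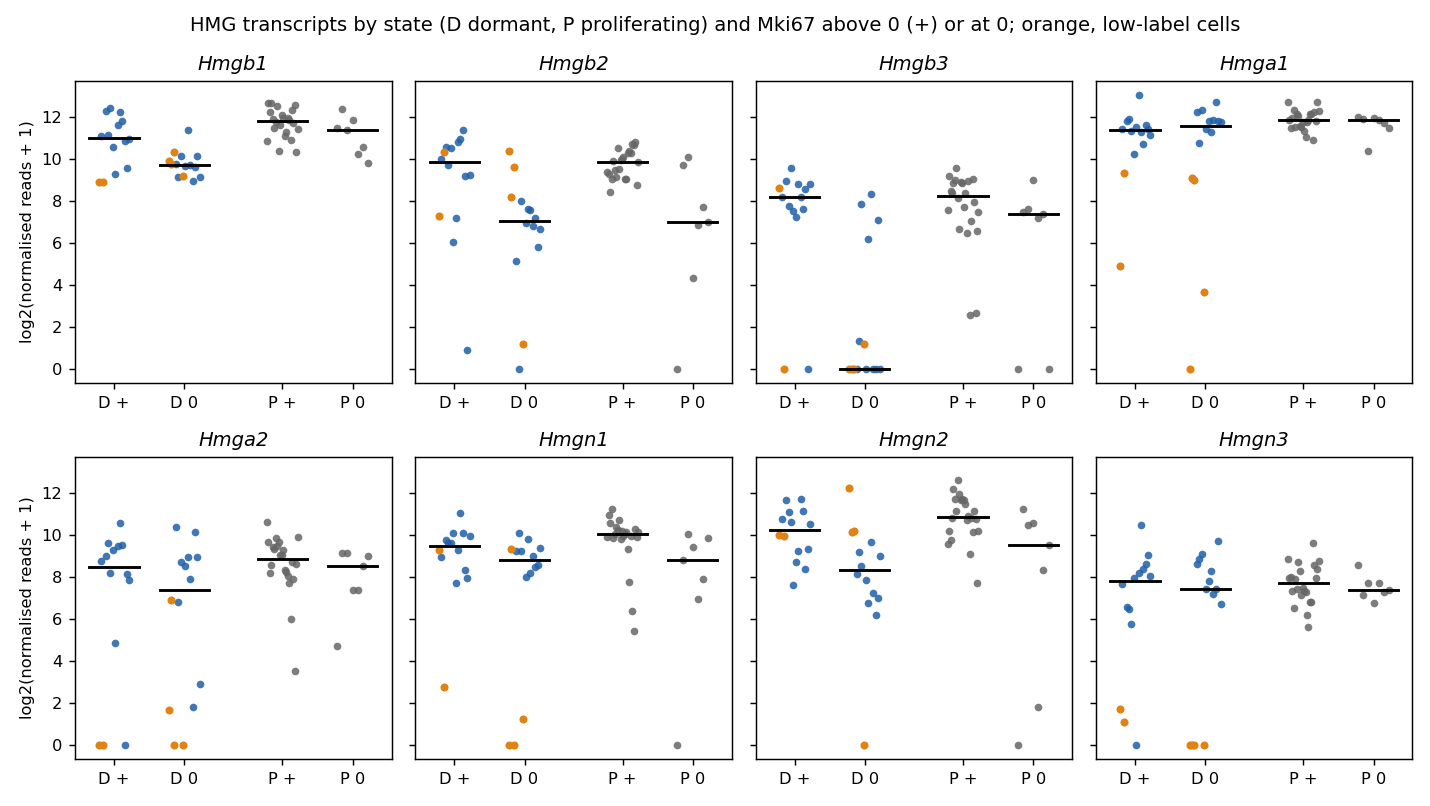
Normalised reads of each HMG gene as log2(value + 1), by state and by Mki67 above 0 (+) or at 0, for 14 and 14 dormant (D) and 22 and 7 proliferating (P) cells. Points are cells, orange points low-label cells, and lines medians. Hmgb1, Hmgb2, Hmgb3 and Hmgn2 have lower medians at Mki67 0 in both states, whereas Hmga1 medians in the 4 groups lie between 2656 and 3722 reads.

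Rank correlations across cells are given next. They are descriptions, since cells share mice, libraries differ in depth, and cells of 1 mouse are not independent. In the 22 labelled dormant cells, Spearman's rho was 0.82 between Hmgb1 and Hmgb2, 0.75 between Hmgb1 and Hmgb3, 0.75 between Hmgb2 and Hmgb3, and 0.64 between Hmgb2 and Hmgn2. The same cells gave rho with Mki67 of 0.60 for Hmgb1, 0.68 for Hmgb2, 0.64 for Hmgb3 and 0.65 for Hmgn2. With recovered reads per cell, rho was −0.52 for Hmgb1, −0.48 for Hmgb2, −0.40 for Hmgb3 and −0.59 for Hmgn2, and the part of depth in the relations was not tested. Hmga1 had a rho of −0.17 and Hmgn3 one of −0.10 with Mki67. In the 29 proliferating cells these relations were weaker, with 0.43 between Hmgb1 and Hmgb2 and 0.45 between Hmgb1 and Mki67, and the difference between the states was not tested.

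Hmga1 instead varied with the tumour label. Its rho with eCFP was 0.63 in labelled dormant and 0.57 in proliferating cells, where that of Hmgb1 was −0.16 and −0.27. With the number of genes above 0, the rho of Hmga2 was 0.41 in labelled dormant and 0.67 in proliferating cells. In labelled dormant cells that of Hmgb2 was 0.47 and that of Hmgb1 0.40.

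**Figure D4:**
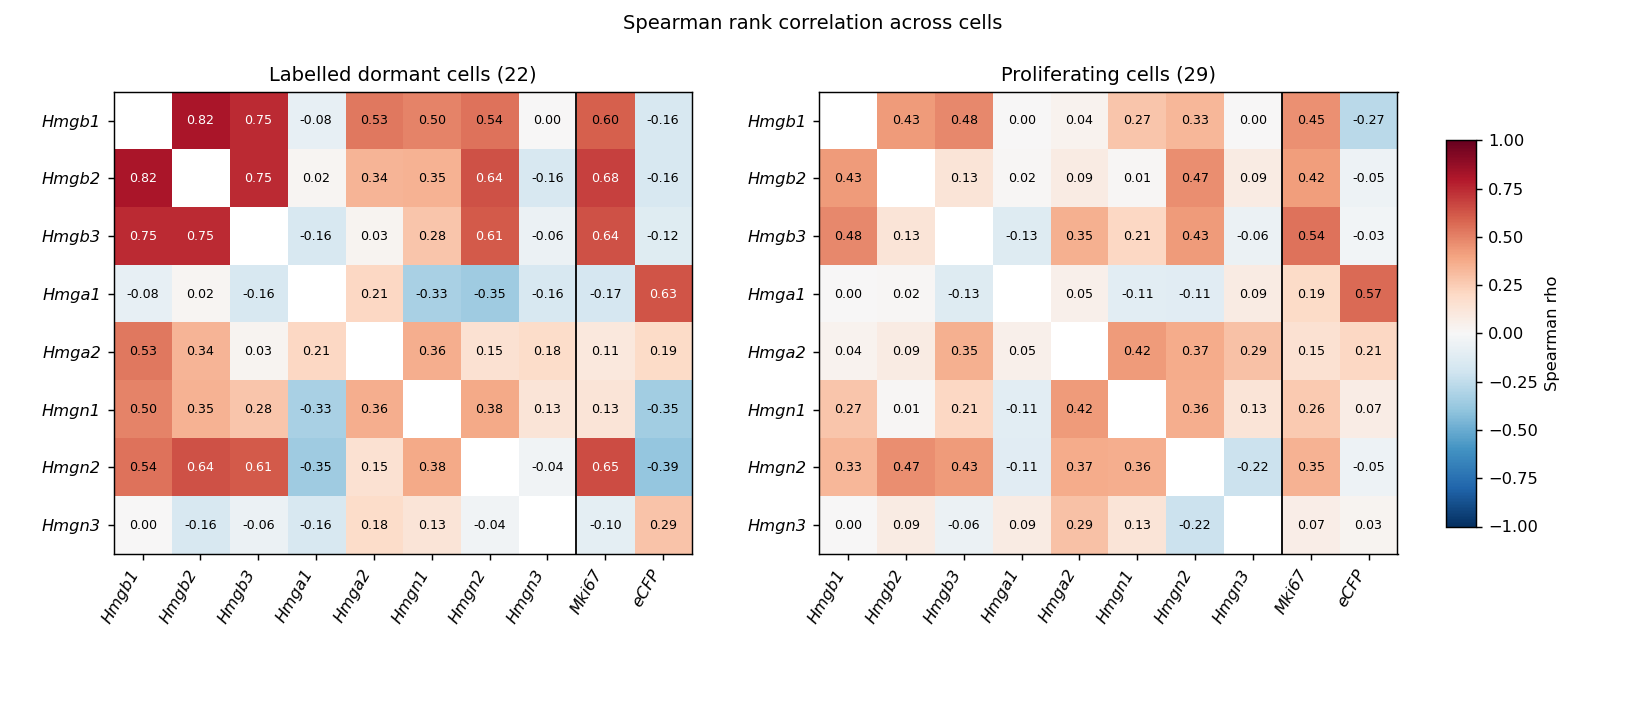
Spearman rank correlation between HMG genes, and with Mki67 and eCFP, in 22 labelled dormant and 29 proliferating cells. Colours and numbers give rho, with no test. Hmgb1, Hmgb2, Hmgb3 and Hmgn2 form a block with Mki67 in labelled dormant cells (0.54 to 0.82), and Hmga1 is highest with eCFP in both states (0.63 and 0.57).

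The genes most like each member over the 57 cells, among 7560 genes above 0 in at least 29 cells, were often copies of it. Hmgb1 was closest to the pseudogenes Gm15387 (rho 0.89) and Gm21596 (0.88), of whose 31-base words 96.6% and 87.2% occur in Hmgb1 transcripts. Its nearest gene with no shared word was Birc5, the mitotic inhibitor of apoptosis survivin (0.83). Hmgb2 was closest to the pseudogene Gm13167 (0.85, 74.6% of words shared), then to Lsm2, an RNA-binding Sm-like protein gene (0.74), and to Gm10282 (0.74), a copy of Hmgn2. Hmgb3 was closest to its copy Gm6104 (0.76, 83.8%), Nup85, a nuclear pore gene (0.72), and Hnrnpab, an RNA-binding protein gene (0.72). Hmgn2 was closest to Gm10282 (0.95, 83.6%), Tmcc1 (0.73) and the histone variant gene H2afz (0.72).

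Hmga1 was closest to its protein-coding copy Hmga1b (0.70, 93.1% of words shared), the label eCFP (0.63) and Psat1, a serine synthesis enzyme (0.61). Hmga2 was closest to the nucleolar chaperone gene Npm1 (0.69), the pseudogene Gm15484 (0.68) and Arpp19, a phosphatase inhibitor (0.66). Hmgn1 was closest to the mitochondrial chaperonin gene Hspe1, the nuclear transport gene Ranbp1 and the mitochondrial import gene Timm8a1 (0.74 each). Hmgn3 was closest to the proteoglycan gene Sdc2 (0.70), the secreted chaperone clusterin Clu (0.68) and Ostc, a subunit of the oligosaccharyltransferase (0.67).

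Reads of a member and of a near-identical copy cannot be told apart with certainty. Copies with at least 50% of their 31-base words in a member were present in the table for Hmgb1 (4), Hmgn2 (2), Hmgb2, Hmgb3 and Hmga1 (1 each). Their summed level came to 6.65% of the Hmgb1 level and to at most 3.31% of the level of any other member. With the copies added, the Hmgb1 difference was −1.62 and that of Hmgn2 0.17, as without them.

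Per kilobase of annotated exon, Hmga1 ranked highest of the 8 in both states. Its median level was 1442 normalised reads per kilobase in labelled dormant and 1750 in proliferating cells. Hmgb1 came second with 265 in labelled dormant and 672 in proliferating cells. In proliferating cells Hmgn2 (571) followed, then Hmgn1 (303), Hmgb2 (244), Hmgb3 (95.1), Hmgn3 (93.6) and Hmga2 (61.1). In labelled dormant cells the order after Hmgb1 was Hmgn1 (190), Hmgn2 (179), Hmgn3 (137), Hmgb3 (85.3), Hmgb2 (64.4) and Hmga2 (62.4). The middle 50% of cells overlapped between each pair of neighbours in these orders, except between Hmga1 and Hmgb1 in both states.

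Genes that work with HMG proteins were read from 4 lists, and limma called none of their genes in either direction over all mice. At an unadjusted p under 0.05 it listed 1 of 14 HMG-box and HMGN relatives, 0 of 6 linker histones, 3 of 9 chaperones and remodellers and 1 of 5 SET complex genes, beside 389 higher and 737 lower of all 11843 genes. Over all genes, 63.1% of differences were negative, with a median of −0.35. Of 14 other genes of the HMG-box and HMGN families, 6 differences were positive and 8 negative, with a median of −0.08. Ssrp1, the HMG-box subunit of the FACT histone chaperone, differed by −0.63 (SE 0.82), Smarce1, a SWI/SNF remodeller subunit, by −0.29 (SE 0.93), and Pbrm1, another such subunit, by −1.35 (SE 1.00). All 6 linker histone genes tested, whose products HMG proteins compete with on nucleosomes, were negative, with a median of −0.86, and included H1f0 (−0.98, SE 0.98), Hist1h1c (−0.41, SE 1.24) and Hist1h1e (−0.83, SE 1.17).

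All 9 nucleosome chaperone and remodeller genes were negative, with a median of −1.68, beside 63.1% negative and a median of −0.35 over all genes. Npm1, a nucleolar chaperone, differed by −1.68 (SE 0.54), Ncl, nucleolin, by −1.89 (SE 0.66) and Nap1l1, a histone chaperone, by −1.11 (SE 0.62). Of 5 genes of the SET complex, which holds Hmgb2 protein, 4 were negative, with a median of −0.29, and Set itself, above 0 in all 57 cells, differed by −1.68 (SE 0.67), Apex1, a DNA repair endonuclease, by −1.51 (SE 0.89) and Nme1, a nucleoside diphosphate kinase, by −0.21 (SE 0.80). Once low-label cells were left out, the list medians were 0.30, −0.28, −0.36 and 0.01 in the order given, beside 0.09 over all genes. Without leukocyte-rich cells they were 1.33, 1.03, 0.63 and 0.39, beside 0.92 over all genes.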

How the data were processed

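Single-cell full-length cDNA was made with SMARTer chemistry and ERCC spike-in RNA and sequenced as Nextera XT libraries, per the labels' protocols. STAR, RSEM, GRCm38 and mm10 appear in the submitters' processing notes without version or role. The deposited values are a signal, reads per gene and cell that the authors normalised with the spike-in model BASiCS, per the series text. The deposited tables cover all 57 cells, and separately the 48 cells of the 4 mice that gave both states. In each cell 100% of gene values were whole multiples of 1 step, within 0.01 reads, so whole reads were recovered. They numbered 945351 to 5306777 per cell, and this depth limits the precision of low values.

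Per the labels, each sample is 1 cell of a named mouse. Each mouse entered a state once, by its mean log2(value + 1), and a mouse with 1 cell of a state (244 dormant, 288 proliferating) rests on that cell. Nothing in the labels says that cells of 1 mouse are independent. limma (3.58.1) with trend and robust moderation was fitted to genes above 0 in at least 6 cells, 11843 over all mice and 11579 in the 4 mice with the mouse as a block, with Benjamini-Hochberg adjustment at 0.05. Standard errors of differences are those of these fits, in which moderation draws on the spread of other genes. The added 1 compresses changes at low values, whereas cells at 0 enter the means and can widen a difference. From the log2 of the mean value, Hmgb3, Hmga2 and Hmgn3 differed by −1.54, −1.85 and −2.56 (against −2.83, −2.79 and −3.28). Hmgn1 and Hmgn2 were lower that way, at −1.86 and −0.33 (against −1.59 and 0.17). As alternatives, recovered reads were summed by mouse and state and tested with DESeq2 (1.42.0) and edgeR (4.0.16). Pairing comes from the labels, since both states came from the same mouse, and deviations of paired means correlated at 0.34, 0.17, 0.00 and −0.01 in mice 369, 452, 360 and 1185. The fits were tested on simulated data.

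The members, gene lists and groups of cells were chosen with earlier results of these data known. Named genes were all 8 members, Mki67, the 3 highest members of each list and the 3 genes most like each member. Cells with eCFP under 100 were called low-label, and those in which 5 or more of 18 pan-leukocyte genes were detected leukocyte-rich. Spike-ins were left out. The series text gives 32 proliferating cells, of which 29 were analysed here. Symbols matched for 12852 of 12887 identifiers. Positions come from GENCODE vM21 (GRCm38) and promoters from RefSeq (GRCm38.p6). The promoter of Hmgn3 was not used here. Software was Python 3.11.15 with scipy 1.17.1, pandas 2.3.3 and matplotlib 3.10.9, and R 4.3.3.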

Additional observations from a re-analysis of the deposited data

Results flagged for a closer look

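The 16 sets of 6 mouse means (8 genes in 2 states) were searched for a mean that lies far from the others, which chance gives in about 1 set in 20. There were 2. Dormant Hmgn1 in mouse 244, where dormant cell 33 is the only cell and is low-label, had a mean of 0 on the log2(normalised reads + 1) scale. Proliferating Hmgb2 in mouse 268 had a mean of 4.69, from proliferating cell 6 with 0 and proliferating cell 9 with 665 normalised reads. Proliferating cell 6 also had 0 reads of Hmgb3, Hmgn1 and Hmgn2, but 2889 normalised reads of Hmgb1 and 4101 of Hmga1.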

How the results depend on the processing

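The Hmgb1 difference over all mice was negative under all 22 alternatives, from −1.82 to −0.73. Leaving out 1 mouse at a time gave −1.82 to −1.31 over all mice and −1.82 to −0.95 in the 4 mice with both states. It was −0.73 without leukocyte-rich cells (and without low-label and leukocyte-rich cells, which are the same set), −0.93 without cells with at least 10 pan-leukocyte genes and −0.78 without leukocyte-rich cells and proliferating cell 6, the last 2 chosen after seeing the data. In the 4 mice it was −0.72 without low-label and −0.65 without leukocyte-rich cells, with 3 and 2 mice left. Median-of-ratios rescaling moved the median of all genes to −0.16, against −0.35, and Hmgb1 to −1.19. edgeR gave −1.25 and DESeq2 −1.30 for Hmgb1. For the other 7 members edgeR gave −0.88 (Hmga1) to 0.34 (Hmgn2), with Hmgb2 at −0.05, and DESeq2 −0.94 (Hmga1) to 0.48 (Hmgn2), with Hmgb2 at 0.09. The members' median was 1.01 without leukocyte-rich cells, and −2.63 to −1.67 with 1 mouse left out. The count of genes called over all mice was 302 with DESeq2 (294 higher and 8 lower in dormant cells), 1 among cells with Mki67 at 0 (chosen after seeing the data) and 0 under the other 22 alternatives. In the 4 mice it was 1 without leukocyte-rich cells. The causes were not tested. With the mouse as a replicate block over all mice Hmgb1 was −1.61, and with no replicate block in the 4 mice it was −1.52 with 0 genes called, so the pairing changed no call. Requiring at least 10 normalised reads of Mki67 put the members' median within-mouse difference at 2.05 in dormant cells (3 mice), against 1.16 (5 mice), beside medians over all genes of 1.07 and 0.28. In proliferating cells it was 2.43, against 2.47. With pseudocounts of 10 and 0.1 the members' median was −1.61 and −2.74. Depth limits members near 0 reads most, and a batch effect cannot be told apart from state.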

Other observations

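Genes of the alarm-signal and let-7 axes around HMG proteins were read as well, and limma called none of them (0 of 5 and 1 of 4 had an unadjusted p under 0.05). Of 5 tested genes for receptors and partners of extracellular HMGB1, 4 differences were positive, with a median of 0.97 on the log2(normalised reads + 1) scale. Cd24a, a surface protein that binds HMGB1, averaged 4.32 ± 4.84 in dormant and 1.69 ± 1.63 in proliferating cells (SD, n = 6 mice each), a difference of 2.64 (SE 1.64). Tlr4, an innate immune receptor, differed by 0.58 (SE 1.08), and Havcr2, an immune checkpoint receptor, by −0.07 (SE 0.87). Without low-label cells the median of the list was −0.29 and Cd24a stood at −0.79. The low-label cells carry the leukocyte transcripts described above, and their part in these values was not tested.

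Of 4 tested genes of the let-7 and IGF2BP axis, which links to Hmga2 through let-7 and through RNA-binding proteins of the IGF2BP family, all differences were negative, with a median of −1.94. Over all genes, 63.1% were negative, with a median of −0.35. Igf2bp2, which HMGA2 is known to regulate, averaged 4.62 ± 2.93 in dormant and 7.92 ± 1.00 in proliferating cells (SD, n = 6 each), a difference of −3.30 (SE 1.21) that was −1.22 without low-label cells. Igf2bp1 differed by −1.58 (SE 1.11), and Dicer1, the enzyme that matures microRNAs, by −0.31 (SE 1.05).

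The marker lists moved with the same cells. With all cells the median difference was 4.61 over 17 tested pan-leukocyte genes and 3.20 over 5 macrophage and granulocyte genes. It was −3.62 for the 2 label genes, −2.18 for 2 epithelial genes and −3.48 for 4 cell cycle genes. Without low-label cells these medians were 1.42, 1.91, 0.25, 1.86 and −1.42.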
